A study of Mus musculus with 45 samples.

Results

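Fetub and Apela are 2 of the 23575 genes in the deposited gene table, and 42 of its 276608 kept transcripts belong to them (26 to Fetub and 16 to Apela). They were chosen from these data by their measured values. They had shown large differences between factor-carrying and wild-type cells at day 2 and reads in uninduced factor-carrying progenitors, so those comparisons are given here as descriptions, with no test. Fetub (ENSMUSG00000022871.13, protein-coding) lies on chromosome 16, plus strand, GRCm38 22918334 to 22939778 by GENCODE. Apela (ENSMUSG00000079042.10, protein-coding) lies on chromosome 8, minus strand, GRCm38 65028417 to 65037336.

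Fetuin-B, the product of Fetub, is a secreted protein of the type 3 cystatin family, made mainly by the liver. It inhibits ovastacin (Astl), an egg protease of the astacin family, and so keeps the coat of the egg from hardening before fertilization. Apela, also called Elabela or Toddler, encodes a small secreted peptide that binds the apelin receptor Aplnr, a G protein-coupled receptor also bound by apelin (Apln). Apela is known for its expression in pluripotent stem cells and for guiding mesendoderm movement and heart development in embryos. Its precursor can be cut by furin-type proteases.

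The study followed mouse neural progenitors to induced pluripotent stem cells by nanopore long-read RNA sequencing in 45 libraries, 22 of an R9 chemistry (direct cDNA of poly(A)-enriched RNA) and 23 of an R10 chemistry (PCR cDNA of total RNA, per the labels' protocols). All progenitors came from the Oct4-GFP embryonic stem cell line O4G. They were wild type (WT) or stably carried a doxycycline-inducible set of factors, with the genotype label OKMS-Luciferase-AS or OKS-Luciferase-AS. These sets differ by Myc in name, and the labels do not say what the luciferase element does. WT progenitors in progenitor medium gave 2 R9 and 2 R10 libraries, and uninduced OKMS and OKS progenitors gave 1 each in both chemistries. WT progenitors held for 2 days in serum medium with LIF and doxycycline (serum below) gave 1 R9 and 2 R10 libraries, so these controls saw the medium and the drug without the factors. Induced OKMS and OKS cells in serum gave 12 R9 libraries (days 2, 4, 6, 10, 14 and 20) and 8 R10 libraries (both sets at days 2, 6 and 18, and OKMS alone at days 4 and 10). From 2i-LIF, the defined medium that holds mouse stem cells in a naive state by kinase inhibition, came 3 R9 libraries (day 14 for OKMS, day 20 for both sets, moved at day 6) and 2 R10 libraries (day 18, with no day of the move given). Serum cells stayed on doxycycline at all days, while the 2i-LIF labels name no doxycycline, so medium and drug cannot be told apart between them. WT embryonic stem cells, also in 2i-LIF, were sequenced in 2 R9 libraries (O4G and R1) and 7 R10 libraries (2 of O4G, 2 of R1-Clone3, 2 of R1 and 1 more of R1 without an n number). Each factor system had 1 library per day, medium and chemistry, and nothing in the labels says that libraries came from separate cultures. P-values therefore measure only the spread between these libraries.

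The R9 libraries held 448250 to 1391635 reads each and the R10 libraries 567129 to 4245818. Within R10, the 4 WT progenitor-derived libraries and the R1 stem cell library without an n number had 0.124% to 0.319% mitochondrial reads, while the other 18 had 0.729% to 2.35%. Factors and this split cannot be told apart in R10 comparisons with WT, and results that rest on the unnumbered library are given with and without it. The 6 neural progenitor markers summed to 3277 to 5692 CPM (reads scaled to a common library size) in the 8 progenitor libraries, and the 6 naive stem cell markers to 10276 to 12960 CPM in the 9 stem cell libraries, so both groups carried the markers of their labels. Of 8 visceral endoderm and hepatocyte markers, Alb and Amn were analysed here, and in the induced serum cells they summed to at most 20.9 CPM. The 4 trophoblast markers analysed summed to 0.746 to 993 CPM in R10 serum cells of days 2 to 10 and to 55.6 to 91.9 CPM in R10 stem cells, and their part in the results was not tested. In bulk RNA, fewer cells of a type and less RNA per cell cannot be told apart.

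The sequences below show the DNA before the annotated starts of both genes and what Apela encodes. The windows are RefSeq promoters of GRCm38.p6, 5′ to 3′, cut before the first annotated transcript, with motif matches in capitals. The first window is chr8:65037337-65037586 on the minus strand and the others are chr16:22918132-22918333 and chr16:22919972-22920221 on the plus strand. The frame is the annotated Apela coding sequence in GENCODE (GRCm38, minus strand, chr8:65036890-65036965 joined to chr8:65035666-65035754), with start and stop codons in capitals.
Apela promoter: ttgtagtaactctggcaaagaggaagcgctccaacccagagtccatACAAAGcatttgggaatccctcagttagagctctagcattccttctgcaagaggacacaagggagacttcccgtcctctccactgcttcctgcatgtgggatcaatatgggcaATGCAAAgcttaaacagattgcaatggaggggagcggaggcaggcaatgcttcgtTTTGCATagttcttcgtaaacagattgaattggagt
Fetub upstream promoter: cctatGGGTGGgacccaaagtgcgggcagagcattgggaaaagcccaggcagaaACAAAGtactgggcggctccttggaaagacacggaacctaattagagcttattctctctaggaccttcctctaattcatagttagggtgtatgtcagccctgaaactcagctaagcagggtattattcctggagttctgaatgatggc
Fetub downstream promoter: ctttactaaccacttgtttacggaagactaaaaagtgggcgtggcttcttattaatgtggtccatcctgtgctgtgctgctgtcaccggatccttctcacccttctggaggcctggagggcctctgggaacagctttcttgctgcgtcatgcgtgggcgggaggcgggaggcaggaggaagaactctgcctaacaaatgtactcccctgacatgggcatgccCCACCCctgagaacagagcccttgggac
Apela frame: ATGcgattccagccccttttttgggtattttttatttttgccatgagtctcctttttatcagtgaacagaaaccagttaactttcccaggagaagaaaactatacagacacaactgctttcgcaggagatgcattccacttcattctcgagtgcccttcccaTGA

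The motifs searched on both strands of each 300-base window were the octamer ATGCAAAT, ACAAAG (a Sox core), CCACCC (a core for Klf-type factors) and CACGTG (an E-box). ATGCAAA, the first 7 letters of the octamer, was added after the Apela window had been read. The Apela window held ATGCAAA on both strands, at 91 and 36 bases before the start counted to the first letter of each match, and ACAAAG at 204 bases before it. Of 32851 promoters, 4.63% held ATGCAAA and 0.292% held it more than once. The Fetub upstream window held ACAAAG (in 18.7% of promoters) and CCACCC on the opposite strand (31.5%), and the downstream window held CCACCC. No window held ATGCAAAT (1.74% of promoters) or CACGTG (7.15%). These are matches of letters, and nothing here measured binding. Few deposited transcripts began inside the printed runs: 2 of 16 for Apela, 4 of 26 for Fetub in the upstream run and 2 of 26 in the downstream run. The main Apela transcript began at 65037249, past the end of its window.

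In WT progenitors, with or without serum and doxycycline, both genes were at or near 0. Fetub had 0 reads in each of the 2 WT R10 progenitor libraries and in each of the 3 WT serum libraries, and 1 read in each of the 2 WT R9 progenitor libraries (1.34 and 0.968 CPM). Over the 2 R10 WT serum libraries, 0 reads allow up to 0.537 CPM, a limit for counting error only. Apela had 0 and 3 reads (0.861 CPM) in the R10 WT progenitors, 0 and 2 reads (1.94 CPM) in the R9 ones, 0 reads in both R10 WT serum libraries and 1 read (1.41 CPM) in the R9 one. Serum and doxycycline without factors thus left both genes under the filter of the WT medium comparison, where 26.8% of 14688 tested genes were called.

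Uninduced factor-carrying progenitors held reads of both genes in R10 and almost none in R9. In R10, uninduced OKMS progenitors had 20 Fetub reads (8.79 CPM) and 2 Apela reads (0.879 CPM). Uninduced OKS progenitors had 8 Fetub reads (4.67 CPM) and 10 Apela reads (5.84 CPM). In R9, the same genotypes had 0 and 0 Fetub reads, which over both libraries allow up to 2.25 CPM, and 1 and 0 Apela reads. The R10 Fetub levels lay above that pooled limit. For single R9 libraries the limits were 4.04 CPM (OKMS) and 5.06 CPM (OKS), so the R10 OKS level lay below that of R9 OKS. The chemistries also differ in RNA input and amplification. Pou5f1, which encodes the factor Oct4, averaged 3.22 CPM in the R10 factor-carrying progenitors and 0.476 CPM in the R10 WT ones. Klf4 averaged 5.27 and 0.620 CPM there. These are 2 of the 4 factor genes, and the sum over all 4, with Sox2 and Myc, was not higher throughout. In R10 it was 190 to 196 CPM in the factor-carrying progenitors and 174 to 252 CPM in the WT ones. In R9 it was 130 to 148 CPM and 165 to 216 CPM. Whether the Fetub and Apela reads moved with the factors before induction was not tested.

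**Figure D1:**
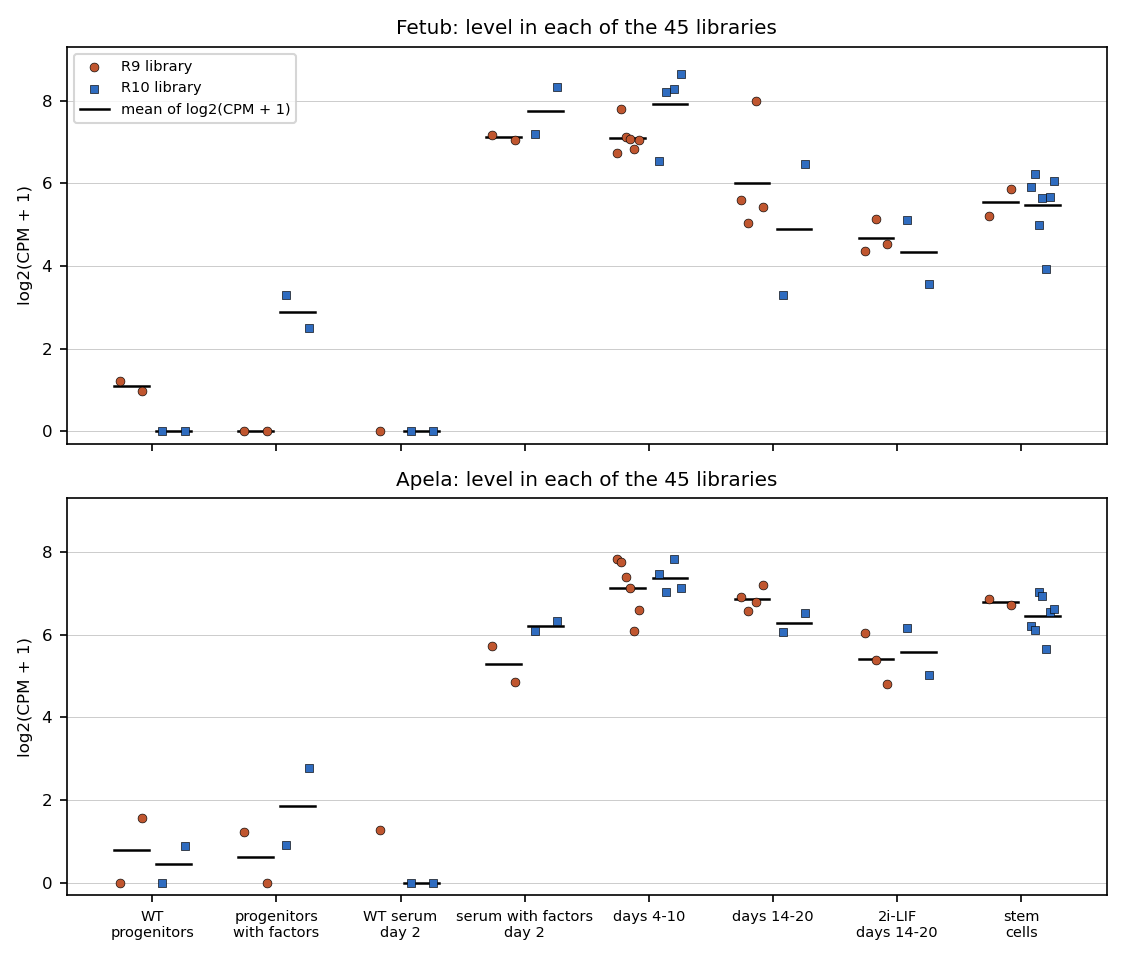
Levels of Fetub (top) and Apela (bottom) as log2(CPM + 1) in all 45 libraries by group, with R9 libraries as circles and R10 libraries as squares; black lines are group means on the log scale for groups with more than 1 library. Both genes lie near 0 in WT progenitors and WT serum cells and above 3 on this scale in every induced, 2i-LIF and stem cell library.

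At day 2 of induction both genes were already high. Fetub stood at 144 CPM (OKMS) and 132 CPM (OKS) in R9 and at 145 and 319 CPM in R10. Apela stood at 52.0 and 28.1 CPM in R9 and at 66.4 and 79.1 CPM in R10. The 3 WT serum libraries of the same day held 0 Fetub reads and at most 1 Apela read each. This contrast chose the genes, so these values are a description with no test.

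Fetub was highest between days 4 and 14 and lower by the last day. In R9 OKMS cells it went from 144 CPM at day 2 to 221, 139, 105, 47.5 and 32.0 CPM at days 4, 6, 10, 14 and 20. In R9 OKS cells it went from 132 CPM to 113, 131, 134, 256 and 42.4 CPM on the same days. In R10 OKMS cells it was 145, 296, 312, 92.5 and 8.90 CPM at days 2, 4, 6, 10 and 18, and in R10 OKS cells 319, 401 and 88.4 CPM at days 2, 6 and 18. Its highest value came at day 4 or 6 in 3 of the 4 series and at day 14 in the R9 OKS series. R9 stem cells had 36.0 and 57.7 CPM and R10 stem cells 14.2 to 73.9 CPM. Of the 4 last-day libraries, R9 OKS lay within the range of its chemistry, R9 OKMS and R10 OKMS below it and R10 OKS above it.

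Apela was lower at day 2 than later in all 4 series except R10 OKMS, where day 18 had 65.3 CPM against 66.4 CPM at day 2. In R9 OKMS cells it was 52.0, 215, 168, 225, 119 and 94.8 CPM at days 2, 4, 6, 10, 14 and 20, and in R9 OKS cells 28.1, 66.8, 96.4, 138, 110 and 145 CPM. In R10 OKMS cells it was 66.4, 129, 225, 176 and 65.3 CPM at days 2, 4, 6, 10 and 18, and in R10 OKS cells 79.1, 140 and 90.9 CPM at days 2, 6 and 18. The highest value came at day 6 or 10 in 3 of the 4 series and at day 20 in the R9 OKS series.

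In the R9 time course limma's F test over the differences from day 0 called 10.7% of 19357 genes tested. Both genes were chosen for their day 2 values and passed its filter on low values only through induced cells, so their differences are a description with no test. Differences are of log2(CPM + 1), which understates the change of low genes. Fetub differed from uninduced cells by 7.12 ± 0.58 (SE) at day 2, 7.31 at day 4 and 5.24 at day 20. Apela differed by 4.68 ± 0.452 (SE) at day 2, 6.86 at day 10 and 6.27 at day 20. The labels do not say whether R9 and R10 libraries share RNA.

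**Figure D2:**
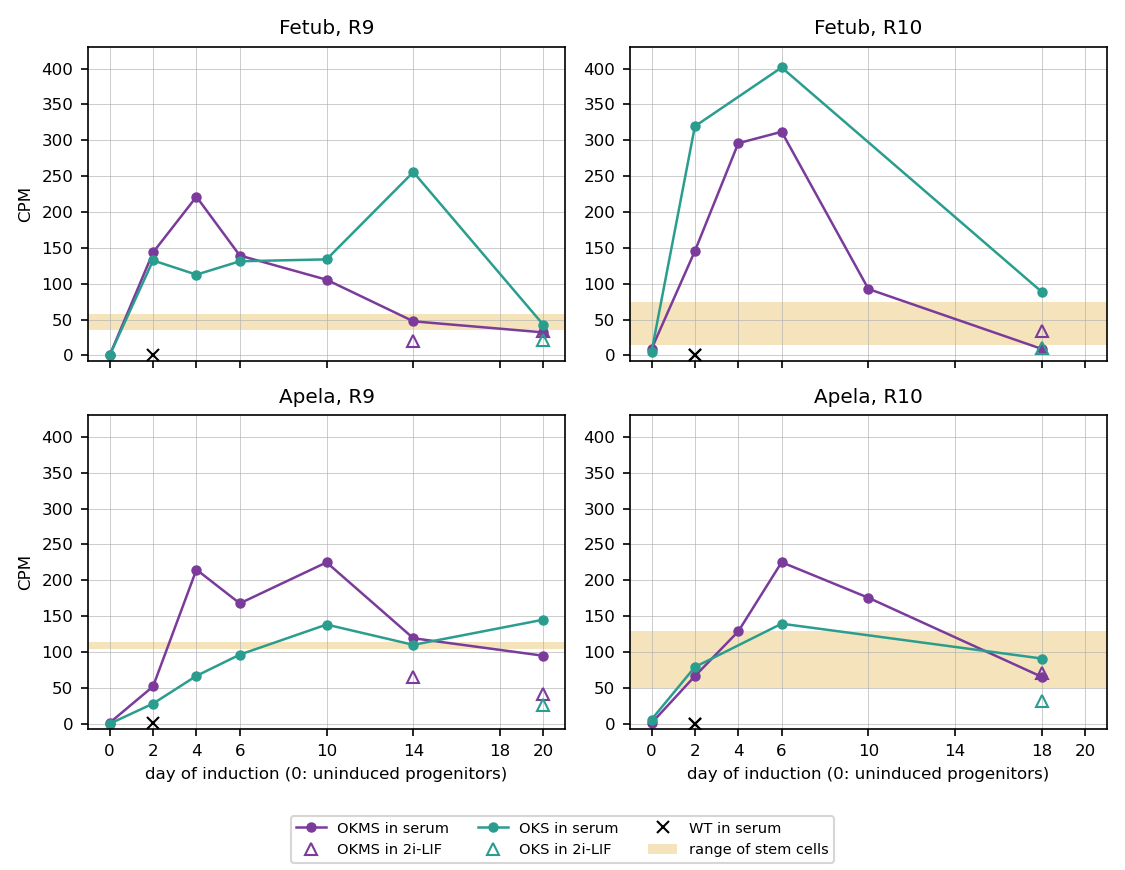
CPM of Fetub (top) and Apela (bottom) by day for R9 (left) and R10 (right); lines join the single library per day of OKMS or OKS cells in serum from uninduced progenitors at day 0, triangles are cells in 2i-LIF, crosses WT cells in serum, and the band spans the stem cell libraries. Fetub lies above the stem cell band in every induced serum library of days 2 to 10, and Apela reaches 225 CPM in OKMS cells of both chemistries.

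Fetub was the higher of both genes per length at day 2 and the lower at the last day in all 4 series. Compared per length, as the ratio of summed TPM (transcript abundance scaled per length and library), Fetub exceeded Apela at day 2, with ratios of 2.25 (OKMS) and 4.42 (OKS) in R9 and 1.92 and 2.44 in R10. At day 6 the ratios were 0.759 and 0.677 in R9 and 0.876 and 1.95 in R10. The days between did not follow 1 order. In R9 OKS cells the ratio was 1.06, 1.10 and 1.56 at days 4, 10 and 14, so per length Fetub was the higher again after day 6. In R9 OKMS cells it was 0.800, 0.417 and 0.280 on those days, and in R10 OKMS cells 1.40 and 0.325 at days 4 and 10. At days 18 and 20 all 4 induced serum libraries had more Apela than Fetub, with ratios of 0.411 and 0.256 in R9 and 0.100 and 0.612 in R10. The 9 stem cell libraries ranged from 0.151 to 0.636. By CPM, which is not scaled by length, the order differed in places. At day 6 Fetub had 131 CPM against 96.4 for Apela in R9 OKS cells, and 312 against 225 in R10 OKMS cells. At day 10 in R9 OKS cells Fetub had 134 CPM against 138 for Apela. An R10 O4G stem cell library had 73.9 against 68.6 CPM. R10 OKS cells at day 18 held 69 Fetub and 71 Apela reads. The ratio is a description and was not tested.

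Both genes were higher in embryonic stem cells than in progenitors. In the 7 R10 stem cell libraries Fetub ranged from 14.2 to 73.9 CPM with a median of 49.9 CPM, and Apela from 49.7 to 129 CPM with a median of 92.8 CPM. The lowest value of both genes came from the R1 library without an n number. Progenitor libraries of both chemistries had at most 8.79 CPM of Fetub and 5.84 CPM of Apela. In R10 the log2 difference was 4.04 ± 0.586 (SE) for Fetub and 5.30 ± 0.398 (SE) for Apela, in a comparison that called 45.8% of 15415 genes. Of its 4 progenitor libraries, 2 are the uninduced factor-carrying ones on whose reads the genes were chosen, and both genes passed the filter on low values only through the stem cells, so the R10 differences are a description with no test. In R9 Apela had 115 and 104 CPM in stem cells. The R9 differences were 4.99 ± 0.495 (SE) for Fetub and 6.09 ± 0.552 (SE) for Apela, beside 36.0% of genes called. Fetub passed the filter there only through the stem cells, and Apela had 1 CPM or more in 2 of the 4 R9 progenitor libraries. As in R10, 2 of these 4 are uninduced factor-carrying libraries, so the R9 differences are also a description with no test. Within the R10 libraries of higher mitochondrial share (6 stem cell, 2 progenitor), the differences were 2.85 for Fetub and 4.73 for Apela, and both progenitor libraries there are the uninduced factor-carrying ones. Without the unnumbered library the R10 differences over all other libraries were 4.30 and 5.43, and with it as the sole stem cell library 2.48 and 4.52.

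In the middle of the course Fetub was above the stem cell level. Over both chemistries, the 10 serum libraries of days 4 to 10 lay 2.11 ± 0.321 (SE) above the 9 stem cell libraries on the log2 scale for Fetub, in a comparison that called 36.4% of 14230 genes. Fetub ran from 92.5 to 401 CPM in these serum libraries and reached at most 73.9 CPM in the stem cell libraries. The Apela difference was 0.71 ± 0.244 (SE). This comparison was added after the values by day had been seen, so the values of both genes are a description with no test. At days 14 to 20 the 6 serum libraries differed from stem cells by -0.10 ± 0.551 (SE) for Fetub and -0.04 ± 0.216 (SE) for Apela, neither of them called, beside 17.4% of genes called. The Fetub value moved with single libraries, and leaving out each in turn gave no call. It was 0.68 without R10 OKMS at day 18 (6 reads), -0.57 without R10 OKS at day 18, -0.41 without R9 OKS at day 14 and 0.01 without R9 OKMS at day 20.

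Apela was lower in 2i-LIF than in serum at matched days. In the 5 pairs, Apela had 64.7 CPM in 2i-LIF against 119 CPM in serum (R9 OKMS day 14), 40.8 against 94.8 (R9 OKMS day 20), 26.8 against 145 (R9 OKS day 20), 70.5 against 65.3 (R10 OKMS day 18) and 31.3 against 90.9 (R10 OKS day 18). It was lower in 4 of 5 pairs, with a log2 difference of -1.17 ± 0.271 (SE, limma adjusted p = 0.0066), beside 12.3% of 14935 genes called. Without the R9 OKS pair of day 20 it was -0.87, which was not called.

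Fetub in the same pairs had 19.5 CPM against 47.5, 34.4 against 32.0, 22.1 against 42.4, 33.5 against 8.90 and 10.9 against 88.4 CPM. It was lower in 3 of 5 pairs, with a difference of -0.63 ± 0.448 (SE) that was not called (limma adjusted p = 0.4). Without the R10 OKMS pair, in which the serum library held 6 Fetub reads, the difference was -1.24 and was called (limma adjusted p = 0.0425). Cells reprogrammed in 2i-LIF also had less Apela than stem cells in the same medium, with a log2 difference of -1.08 ± 0.259 (SE, limma adjusted p = 0.021), beside 3.36% of 14946 genes called. That call was lost without the R10 OKS library (-0.92), the R9 OKS library (-0.94) or the R9 O4G stem cell library (limma adjusted p = 0.0513). Fetub differed by -1.02 ± 0.345 (SE) and was not called (limma adjusted p = 0.094). Without the unnumbered stem cell library it was -1.17 and was called (limma adjusted p = 0.0119).

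OKMS and OKS cells did not differ by a called amount over all days. In R9 Fetub was higher in OKMS cells in 3 of 6 day pairs, with a difference of -0.33 ± 0.319 (SE, limma adjusted p = 0.468), beside 18% of 14277 genes called. Without day as a block limma called 2 genes there. Apela was higher in OKMS cells in 5 of 6 pairs, with a difference of 0.59 ± 0.243 (SE, limma adjusted p = 0.0862). At days 2 to 6 alone the Apela difference was 1.11 and was called (limma adjusted p = 0.00664). The change of that difference between days 2 to 6 and days 10 to 20 was itself not called (-1.04, limma adjusted p = 0.545), nor was that of Fetub (-1.44, limma adjusted p = 0.514). In R10 Fetub was lower in OKMS cells in 3 of 3 pairs, with a difference of -1.56 ± 0.522 (SE, limma adjusted p = 0.251), and Apela differed by -0.01. The Fetub value was -0.75 without the day 18 pair, whose OKMS library held 6 Fetub reads, and -2.15 without the day 6 pair, neither called. There limma called 0 of 15135 genes (0%) with 2389 at an unadjusted p under 0.05, edgeR called 0 with 2420 under 0.05, and DESeq2 called 349. Without the day 18 pair limma called 510.

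The transcripts showed 2 start regions of Fetub and an optional second exon. Of the 26 kept Fetub transcripts, 22 began in the upstream region, 3 in a downstream region and 1 elsewhere, and 15 held exon 2 while 10 skipped it. The upstream starts ran from 22917379 to 22918641, so not all of them share the first exon of the main transcript. All first exons of that region are pooled below as the upstream first exon. The most abundant Fetub transcript had 8 exons and 1694 bases, with a first exon at chr16:22918191-22918590 that begins inside the upstream window printed above. It averaged 105 ± 77.1 TPM (SD, n = 8) in R10 serum cells and 17.9 ± 9.16 TPM (SD, n = 7) in R10 stem cells. The next had 7 exons without exon 2 and averaged 42.6 ± 41.3 TPM (SD, n = 8) and 2.36 ± 1.44 TPM (SD, n = 7). The main downstream transcript, with a first exon at chr16:22920064-22920495, averaged 9.16 ± 8.13 TPM (SD, n = 8) and 5.66 ± 2.04 TPM (SD, n = 7).

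**Figure D3:**
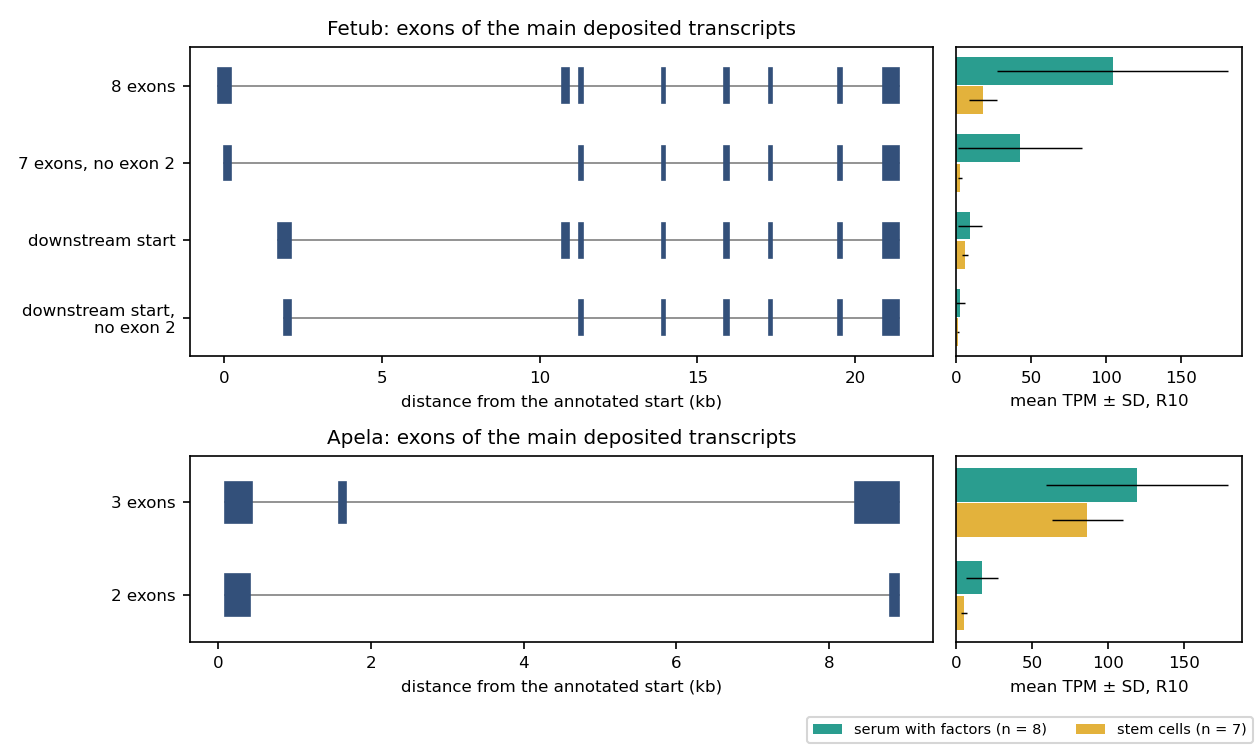
Exons (boxes) of the main deposited Fetub and Apela transcripts by distance in kb from the annotated start, with bars for mean TPM in 8 R10 serum libraries with factors and 7 R10 stem cell libraries; error bars are SD. The Fetub transcript without exon 2 averages 42.6 TPM in serum cells and 2.36 TPM in stem cells.

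Transcript use was compared between R10 stem cells and induced serum cells with limma's diffSplice, which called 31.3% of 9568 genes. Several of Fetub's 12 transcripts passed the filter on low values only through the serum libraries, where Fetub is high. Among them were forms that averaged 0 TPM in stem cells and 1.45, 1.84 and 3.44 TPM in serum cells. The serum group also holds the day 2 libraries on which the gene was chosen. Transcript use of Fetub is therefore a description with no test. The 7-exon form without exon 2 was used less in stem cells, by 2.18 on the log2 scale relative to the gene's other transcripts. A pair of low forms was used more in stem cells, by 1.62 and 1.68, at mean levels of 1.63 and 0.949 TPM there. Neither of that pair would have passed the filter on low values without the stem cells, so their differences are a description with no test. The scale of log2(TPM + 1) also understates the change of forms near 0. Fetub was called by limma here but not at a filter of 5 TPM, and nothing is read from either. Apela's use was not called over its 11 transcripts (limma adjusted p = 0.301).

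The share of Fetub from the upstream first exon ranged from 58.1% to 100% (median 95.6%) in the 8 R10 serum libraries and from 71.2% to 82.1% (median 77.6%) in the 7 stem cell libraries. Of the serum libraries, 7 lay above every stem cell library, and OKMS day 10 lay below all of them. The value of 100% came from OKMS day 18, which held 6 Fetub reads. The difference in means was 13.1 points (two-sided exact permutation test p = 0.0314, adjusted p = 0.0769 over 3 share tests), which fails the correction. Without OKMS day 10 it was 17.8 points. That is the only serum library below the stem cells, so leaving it out follows the values seen and no test is given. In R9 the 12 serum libraries ranged from 75.3% to 100% and the 2 stem cell libraries had 69.6% and 74.8%. The difference was 15.8 points (exact permutation p = 0.0220, not corrected), the smallest two-sided p that 12 against 2 libraries can give. The share with exon 2 had medians of 74.0% and 84.1% in R10 serum and stem cells and differed by -5.05 points (exact permutation p = 0.419). Without the unnumbered R1 stem cell library it differed by -9.60 points. That library had the lowest exon 2 share of the 7, so leaving it out follows the values seen and no test is given. These share tests were added after the transcript values had been seen.

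**Figure D4:**
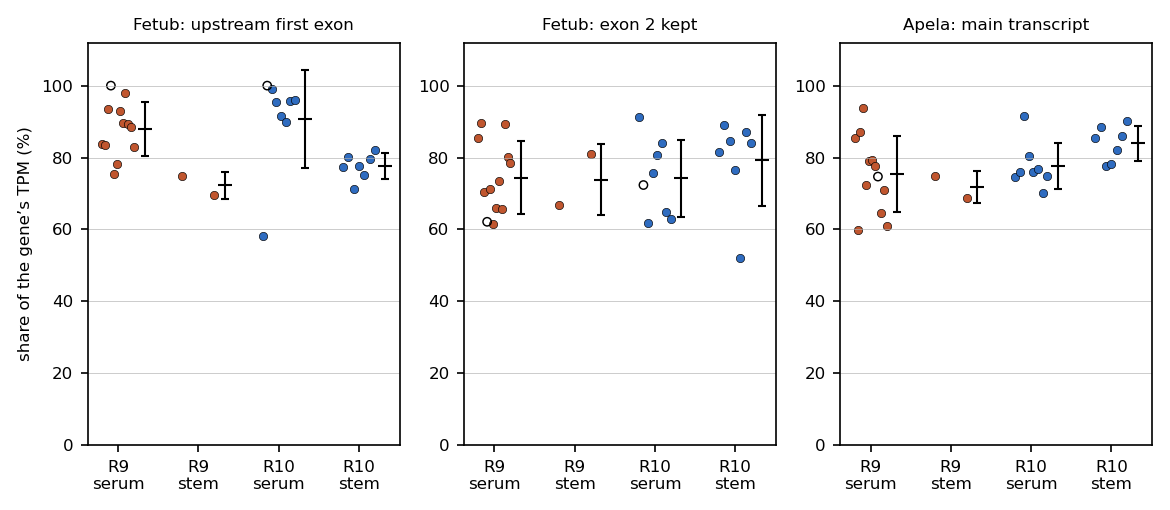
Shares of a gene's TPM in percent per library for serum cells with factors and stem cells in R9 (orange) and R10 (blue); open circles are libraries with under 30 reads of the gene and the black marks give mean ± SD. In R10, 7 of 8 serum libraries lie above all stem cell libraries for the Fetub upstream first exon.

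The deposited Fetub models ended exon 2 at a place other than the annotation does. Exon 2 spans chr16:22929075-22929313 in 14 of the 15 deposited transcripts that hold it, while GENCODE ends it at 22929309, which is 4 bases earlier. Before the authors' filter, 66 of 73 assembled transcripts with that exon start ended at 22929313 and 0 at the annotated end. The deposited table predicted frames of 318 codons for the 8-exon transcript and 308 codons for the 7-exon one, and GENCODE annotates 388 codons for the transcripts with exon 2. GENCODE also annotates 308 codons for a 7-exon transcript without exon 2. The cause of the 4-base difference was not tested.

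Apela came mostly from 1 transcript that held the frame printed above. It had 3 exons and 1025 bases and matched an annotated transcript at every splice site, and it averaged 119 ± 59.9 TPM (SD, n = 8) in R10 serum cells and 86.0 ± 23.3 TPM (SD, n = 7) in R10 stem cells. The deposited table called it non-coding, as it did 15 of the 16 Apela transcripts, although GENCODE annotates its frame of 54 codons. Its share of Apela TPM ranged from 70.2% to 91.7% (median 75.9%) in R10 serum cells and from 77.7% to 90.1% (median 85.5%) in stem cells, a difference of -6.47 points (two-sided exact permutation p = 0.0513, adjusted p = 0.0769). Transcripts with the annotated frame intact made up 75.9% to 97.0% of Apela TPM in R10 serum cells and 87.3% to 92.9% in stem cells. A form of 2 exons, which does not hold that frame, averaged 17 ± 10.8 TPM (SD, n = 8) in R10 serum cells and 5.00 ± 2.14 TPM (SD, n = 7) in stem cells.

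The receptor of Apela was near the detection limit throughout. Aplnr reached at most 5.35 CPM in any library, averaged 1.62 CPM in R9 and 0.823 CPM in R10 serum cells of the early and middle days, and was at 0 CPM in all 9 stem cell libraries. Apln, the other ligand of that receptor, went the opposite way to Apela between progenitors and stem cells. It averaged 65.0 and 0.374 CPM in R10 (log2 difference -5.59 ± 0.209 SE). Apln passed the filter on low values only through the progenitors, where it is high, so this difference is a description with no test. Furin, a protease that cuts such precursors, averaged 13.0 CPM in progenitors and 11.1 CPM in stem cells and was not called. Mme, a peptidase known to cleave apelin peptides, averaged 0.146 CPM in progenitors and 34.9 CPM in stem cells. Of the 7 genes of the apelin system, 5 were tested in that comparison, 2 were called higher (Apela and Mme) and 1 lower (Apln), beside 45.8% of all genes called. Apela, itself a chosen member, and Mme passed the filter on low values only through the stem cells, so nothing is read from this count. In the R9 time course all 7 were tested, 3 were called higher (Apela, Mme and Aplnr) and Apln lower, beside 10.7% of all genes. Those 3 passed the filter only through induced cells, so nothing is read from this count either. The Aplnr call came from the early days: it was at 0 CPM in all 6 R9 serum libraries of days 10 to 20, and it averaged 1.47 CPM in R10 WT serum cells, which carry no factors.

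Of the astacin proteases, the family of Fetub's known target, Astl, Mep1a, Tll1 and Tll2 were not analysed here. Mep1b, a meprin subunit, averaged 5.51 CPM in R10 stem cells and 0 CPM in progenitors, and Bmp1, a procollagen protease, 1.73 and 76.3 CPM. Of the 5 type 3 cystatins, Fetub and Ahsg passed the filter on low values there, and only through the stem cells, where they are high, so no count of calls is given. Mep1b and Zp3 also passed only through the stem cells. Zp3, the zona pellucida gene tested, encodes a protein of the egg coat. It averaged 18.5 CPM in R10 stem cells and 0 CPM in progenitors. In serum cells of days 4 to 10 Zp3 averaged 1.01 CPM, against 17.9 CPM over all 9 stem cell libraries. In 2i-LIF against serum it was 1.75 ± 0.407 (SE, limma adjusted p = 0.00701), while Fetub was not called.

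Among Fetub's neighbours, the other fetuin gene Ahsg had its highest levels in serum cells with factors, and the kininogens in R10 WT serum cells. Ahsg, which encodes fetuin-A, lies 17958 bases from Fetub by the deposited bounds and was at 0 CPM in all WT progenitor and WT serum libraries. It averaged 40.5 CPM in R10 serum cells of days 2 to 10 and 3.24 CPM in R10 stem cells. In serum cells of days 4 to 10 Ahsg was higher than in stem cells by 3.03 ± 0.471 (SE) on the log2 scale. That comparison was added after the values by day had been seen, so no test is given. In 2i-LIF Ahsg averaged 1.18 CPM in R9 and 0 CPM in R10, where Fetub averaged 25.4 and 22.2 CPM. Ahsg was lower in 2i-LIF than in serum in 5 of 5 pairs, with a log2 difference of -1.83 ± 0.522 (SE). It passed the filter on low values there only through the serum libraries, so this is a description with no test. The R10 serum libraries of day 18 had 1.48 CPM (OKMS, the value of 1 read) and 3.84 CPM (OKS, the value of 3 reads). Ahsg was not called in the R9 time course (limma adjusted p = 0.106), and it was higher in OKMS than in OKS cells in R9 by 1.42 ± 0.472 (SE, limma adjusted p = 0.0393). Kng2 and Kng1, which encode kininogens of the same cystatin family, averaged 32.3 and 8.04 CPM in the R10 WT serum libraries, where Fetub and Ahsg were at 0. They were at 0 CPM in the R10 WT progenitors and averaged 2.2 and 0.327 CPM in the R10 serum cells with factors of days 2 to 10. Crygs, a lens crystallin gene in the same 250 kb window, averaged 206 CPM in R10 WT serum cells and 0.287 CPM in R10 WT progenitors. These 3 genes passed the filter of the WT medium comparison only through the serum libraries, so no test is given. Crygs was also present in serum cells with factors, at 65.3 CPM in R9 at days 2 to 6 and 26.2 CPM in R10 at days 2 to 10. The 4 astrocyte markers summed to 1188 to 3057 CPM in the R10 WT serum libraries, with all 4 detected, and to 42.6 to 93.3 CPM in the R10 WT progenitors, with Aqp4 at 0. Alb averaged 53.8 and 0.287 CPM there. The part of these markers in the result was not tested.

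**Figure D5:**
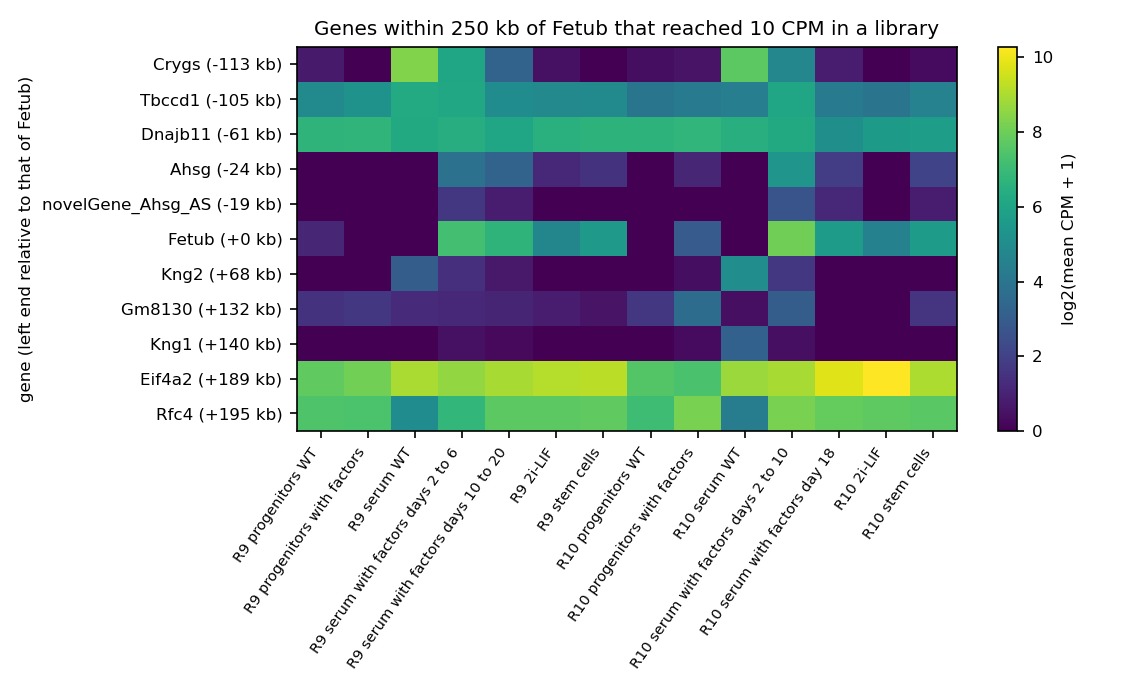
Log2 of the mean CPM plus 1 per group (columns) of the genes within 250 kb of Fetub that reached 10 CPM in a library (rows, ordered by position with the distance of left ends in kb). Fetub and Ahsg are brightest in serum cells with factors, Crygs in WT cells in serum of both chemistries, and Kng2 and Kng1 in those of R10, while Crygs also reaches 65.3 CPM in R9 serum cells with factors at days 2 to 6.

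Near Apela, Cpe moved the opposite way between progenitors and stem cells. Cpe, which encodes carboxypeptidase E, averaged 144 CPM in R10 progenitors and 7.74 CPM in stem cells (log2 difference -3.87 ± 0.393 SE, limma adjusted p = 3.70e-07). Tmem192, a lysosomal membrane protein gene, averaged 15.4 and 50.2 CPM (log2 difference 1.65 ± 0.17 SE, limma adjusted p = 4.30e-07) and had 21.2 CPM in R10 WT serum cells, where Apela was at 0. A pair of same-strand genes that overlap Apela, Gm45886 and a joined Apela and Trim61 gene, reached at most 3.53 and 2.23 CPM in any library. Unannotated antisense genes overlapped the outer bounds of the deposited Fetub models at up to 10.6 CPM. The sources used here do not say if reads were counted by strand, so reads there could be split.

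By likeness over libraries, each of the 2 genes stood close to the other. Pearson's r between them, on log2(CPM + 1), was 0.909 over the 22 R9 libraries and 0.893 over the 23 R10 libraries. The libraries fall into cell states and share their depth and conditions, so this is a description with no p. Both genes were also chosen from these libraries for large day 2 differences from WT cells, so a high r between them was in part set by that choice. Among 16995 genes ranked by the mean r of both chemistries, the 5 most like Fetub apart from Apela, which stood above them (0.901), were Timp1 (mean r 0.883), 2310043M15Rik (0.882), Irak3 (0.882), Socs2 (0.879) and Itpr3 (0.879). Those most like Apela, all above its value with Fetub, were Itpr3 (0.924), Ngfr (0.922), Sigirr (0.916), Rai14 (0.913) and Ly6a (0.911). Timp1 encodes an inhibitor of matrix metalloproteases, Socs2 and Irak3 regulators of cytokine and innate immune signalling, Itpr3 a calcium channel, Ngfr a neurotrophin receptor and Ly6a the surface antigen Sca-1. Ly6a averaged 126 CPM in R10 serum cells of days 2 to 10, 389 CPM at day 18 and 66.3 CPM in R10 stem cells, against 0 CPM in R10 WT progenitors and 0.391 CPM or less in R10 WT serum cells.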

How the data were processed

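The authors deposited a table of gene CPM (reads per gene scaled to library size) and a table of transcript TPM for 45 libraries, with assembled transcript models as genome positions and other deposited descriptors such as length and predicted frame. Per the submitters' processing notes, minimap2 2.24-r1122 and build mm10 were used, and the filter on transcripts is not given in the sources used here. Of the gene table's columns, 13 matched no sample and were left out. Depth and mitochondrial share were computed from the gene table.

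CPM values divided by the value of 1 read gave whole reads (100% of values above 0, within 0.02 reads). The main test was limma 3.58.1 (R 4.3.3) on log2(CPM + 1) over all genes with at least 1 CPM in as many libraries as the smaller group, with Benjamini-Hochberg adjustment. A call needed an adjusted p under 0.05 and a log2 difference of at least 1. Count tests on the recovered reads (edgeR 4.0.16, DESeq2 1.42.0) were alternatives, and for R10 stem cells against progenitors they called 7599 and 7523 genes beside 7067. Day or pair was a block where systems or media were compared, and chemistry a term where both were joined. Transcript use was tested with limma's diffSplice on log2(TPM + 1), and shares with exact permutation tests over libraries. The methods were tested on simulated data.

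The members, gene lists and tests were chosen with earlier results of these data known. Named are both genes, 4 gene lists around them, the factor genes, genes within 250 kb, and the 5 genes most alike to each. A limit for 0 reads is 3 reads of the depth and covers counting error only. Promoter sequences are from RefSeq and exon positions from GENCODE. Alternatives were other pseudocounts and filters, median centring, other tools, single chemistries and each library left out.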

Additional observations from a re-analysis of the deposited data

Results flagged for a closer look

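Of 19 groups examined, 5 values stood apart from the rest of their group by Dixon's criterion, which flags about 1 in 20 groups by chance. Apela was at 5.84 CPM in the uninduced OKS progenitors of R10, the highest of 4 progenitor libraries. The share of Fetub TPM with exon 2 was 51.9% in the R1 stem cell library without an n number, the lowest of 7. That library also had the lowest mitochondrial share in R10, at 0.124%, and the part of this in the exon 2 share was not tested. The share from the upstream first exon of Fetub was 58.1% in R10 OKMS cells at day 10, the lowest of 8. The main transcript's share of Apela was 91.7% in R10 OKMS cells at day 2, the highest of 8, and 76.0% in R9 OKMS cells in 2i-LIF at day 14, the lowest of 5.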

How the results depend on the processing

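Apart from settings that leave out a library, 147 of 165 values kept their direction and call. With the unnumbered R1 library as the sole stem cell library of R10, the stem cell differences were 2.48 for Fetub and 4.52 for Apela, neither called, and in the libraries of lower mitochondrial share that of Apela was 5.22, not called. Both settings have 1 stem cell library, which is assumed to vary like the progenitors. At days 2 to 6, OKMS minus OKS in R9 was 0.39 for Fetub and 1.11 for Apela. In R10 that difference for Apela was 0.17 with median centring, 0.12 with edgeR and 0.0911 with DESeq2. Apela in 2i-LIF minus serum was -0.70 in R10 pairs, and 2i-LIF cells minus stem cells -1.38 in R9 and -0.86 in R10, none called. Late serum cells minus stem cells was 0.47 (edgeR), 0.49 (DESeq2) and 0.48 (R9) for Fetub and 0.0844 (R9) for Apela. Transcript use of Fetub had an adjusted p of 0.0915 by limma at 5 TPM. In R9 the exon 2 share differed by 0.567 points and the main Apela share by 3.66 points. The causes were not tested.

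With each library or pair left out, OKMS minus OKS ran from -0.59 to 0.0868 for Fetub in R9, -2.15 to -0.75 for Fetub in R10 and -0.36 to 0.22 for Apela in R10. The 2i-LIF minus serum difference ran from -1.24 to -0.0616 for Fetub and -1.49 to -0.87 for Apela, and that against stem cells from -1.30 to -0.66 and -1.40 to -0.92. Late serum cells minus stem cells ran from -0.57 to 0.68 for Fetub and -0.11 to 0.0827 for Apela. The upstream share difference ran from 11.8 to 17.8 points, that of exon 2 from -9.60 to -3.26 points. That of the main Apela transcript ran from -8.49 to -5.42 points. R10 OKMS at day 2 had the highest main Apela share of 8 serum libraries, so leaving it out follows the values seen. No call is given for that setting. Genes called in the WT medium comparison ran from 0 to 1141. With the replicate number as a block, 5605 genes were called there beside 3940. The deviations of same-numbered libraries had a correlation of 0.474 over 14688 genes in 2 pairs, and the labels do not say that the numbers mark a shared batch.

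Counts of calls over all genes also moved. The R9 time course had 2078 calls by limma, 4568 by edgeR and 1367 without day 2. The comparison of 2i-LIF cells with stem cells had 502 calls, 246 at a filter of 5 CPM, 223 by edgeR, 300 by DESeq2, 110 in R9 and 1438 in R10. Late serum cells against stem cells had 2558 calls, 1580 at 5 CPM, 191 in R9 and 3610 in R10. The 2i-LIF comparison with serum had 1832 calls, 1166 in R9 pairs and 188 in R10 pairs. Serum cells of days 4 to 10 had 5178 calls against stem cells (3081 higher, 2097 lower), 2921 in R9, and 2243 higher and 3055 lower with median centring. OKMS minus OKS in R9 had 990 higher and 1577 lower genes, and 1438 and 1234 with median centring. Median centring moved the median of all genes from 0.01 to 0.24 for R10 stem cells against progenitors. R10 stem cells against progenitors had 2464 calls at the lower mitochondrial share.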
